A study of Mus musculus with 12 samples.

Results

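The 9 genes described here encode serotonin receptors: Htr1a, Htr1b, Htr1d, Htr2a, Htr2c, Htr3a, Htr4, Htr6 and Htr7. They were chosen by gene symbol from the 24421 genes of the deposited count table, and all 9 were present and carried enough counts to be tested, as did 15148 genes in all. Striatal RNA had been sequenced in 12 libraries from male C57BL/6J mice that had not drunk ethanol before the experiment, 6 with the saline label and 6 with the varenicline label. Every mouse, controls included, drank 20% ethanol in Drinking-in-the-Dark, a limited-access test with sessions of 2 h that began 3 h into the dark phase. In 3 cycles of 2 days, all mice received saline in the first cycle, and in the remaining 2 cycles the assigned injection, saline or varenicline at 2 mg/kg, came 30 min before the session on the second day. Both sides of the striatum were dissected after the last session, so no group without ethanol is compared here. Neither age nor the number of mice behind a library is stated in the sample descriptions. All p-values therefore refer to the variation from library to library, which may in part be technical.

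Serotonin reaches the striatum through axons of raphe neurons, whose cell bodies lie in the brainstem. Most of its receptors are G protein-coupled: the Htr1 group couples to inhibitory G proteins, the Htr2 group to the Gq pathway, and Htr4, Htr6 and Htr7 to stimulatory G proteins. Htr3a is the exception, the obligatory subunit of a cation channel that serotonin opens and that belongs to the same superfamily as the nicotinic acetylcholine receptors. Varenicline, a partial agonist at nicotinic receptors, also acts on that channel. In striatum, Htr1b is known from the terminals of projection neurons, Htr6 and Htr4 from projection neurons, and Htr2c from projection neurons and, at very high levels, from choroid plexus epithelium. Htr1a and Htr2a are better known from cortex, and Htr1a also from septum and hippocampus.

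The results turn mainly on Htr1b, Htr2c and Htr1a, so the 250 bases before their RefSeq starts are printed 5′ to 3′ on the strand of the gene (build GRCm38.p6). Capitals mark matches, on either strand, to any of the 5 motifs searched: the GC box with letters GGGCGG, the TATA box read as TATAAA, the CCAAT box under its own letters, the cAMP response element core as TGACG, and the E-box written CACGTG. The RefSeq start of Htr1b lies upstream of the exon that was counted for it.
Htr1b, chr9:81633833-81634082, minus strand: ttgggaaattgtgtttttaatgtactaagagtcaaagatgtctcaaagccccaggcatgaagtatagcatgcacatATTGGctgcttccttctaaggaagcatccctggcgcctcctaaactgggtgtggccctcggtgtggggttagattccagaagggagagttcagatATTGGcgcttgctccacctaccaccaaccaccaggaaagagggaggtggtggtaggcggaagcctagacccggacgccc
Htr2c, chrX:146962263-146962512, plus strand: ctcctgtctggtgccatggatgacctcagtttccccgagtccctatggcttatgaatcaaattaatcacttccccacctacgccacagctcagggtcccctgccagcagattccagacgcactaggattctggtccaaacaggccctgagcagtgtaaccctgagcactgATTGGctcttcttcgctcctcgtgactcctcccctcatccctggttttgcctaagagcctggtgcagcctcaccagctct
Htr1a, chr13:105443443-105443692, plus strand: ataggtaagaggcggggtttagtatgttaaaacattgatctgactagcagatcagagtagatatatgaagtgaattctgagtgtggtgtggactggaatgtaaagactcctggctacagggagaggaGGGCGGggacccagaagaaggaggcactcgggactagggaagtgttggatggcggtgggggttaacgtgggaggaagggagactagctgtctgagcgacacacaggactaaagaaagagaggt
The Htr1b window held 2 CCAAT matches and the Htr2c window 1, all on the opposite strand, where they read as ATTGG in the letters printed. The Htr1a window held 1 GC box and no match to the other motifs. Among 32851 RefSeq promoter windows of the same length, 33.8% held CCAAT, 32.7% the GC box, 17.8% the cAMP response element core, 12.4% the TATA box and 6.02% the E-box. Matched letters are a description of these windows and not evidence of binding. Promoter windows were read for 7 of the 9 genes, with Htr3a and Htr4 not among them.

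Library totals ran from 13340420 to 27917715 counts, and none of the 66 library pairs looked like a repeat of one library (lowest chi-square per degree of freedom 5.90). The libraries carried the markers of striatal projection neurons that the label calls for, 12 of 12 tested and together at 6917 to 12127 CPM (counts scaled to a common library size). They also carried markers of tissue that borders the striatum, in amounts that differed between libraries. The cortical excitatory score, the mean log2 CPM of 12 markers, lay between 4.44 and 5.39 with saline. In the library varenicline 6 it was 5.18, inside that range, and in the other varenicline libraries it was between 2.38 and 3.99. The summed cortical markers ranged from 656 to 1229 CPM with saline and from 126 to 1048 CPM with varenicline, with none of the 12 at 0. Choroid plexus markers, 12 of 12 tested and none at 0, ranged from 88.6 to 1734 CPM with saline and from 99.6 to 2008 CPM with varenicline. Summed thalamic markers ranged from 43.0 to 160 CPM with saline and from 39.1 to 83.8 CPM with varenicline. Of 6 hypothalamic markers only Pomc could be tested. It was at 27.8 CPM in varenicline 6 and at most 1.86 CPM in any other library. Varenicline 6 is kept below, and values without it are given where they change the call of a named gene of the serotonin system.

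Per length of exon, Htr1b and Htr2c were the most abundant of the 9 transcripts. In CPM per kilobase of exon, a scale on which genes can be compared, Htr1b averaged 15.9 ± 2.26 in saline and 20.5 ± 3.26 in varenicline libraries (mean ± SD, 6 per group). Htr2c averaged 9.96 ± 1.74 and 12.5 ± 2.43 on the same scale. Htr1b was above Htr2c in each of the 12 libraries, and every Htr2c level was above every Htr2a level. The exons counted for Htr1b span 1161 bases of an annotated locus of 5538 bases, so its level per length rests on a short stretch. Its lead over Htr2c was narrower in the authors' FPKM values. There Htr1b averaged 12.6 ± 2.28 with saline and 16.5 ± 2.39 with varenicline, and Htr2c 10.3 ± 1.81 and 13.0 ± 2.57. Htr2a, at 5.29 ± 0.827 and 4.66 ± 0.464, and Htr1d, at 4.33 ± 0.964 and 5.30 ± 0.778, could not be ordered: Htr2a was the higher in 6 of 12 libraries. Htr6 followed at 3.23 ± 0.402 and 3.44 ± 0.612, below Htr1d in 11 of 12 libraries and above Htr7 in 11.

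The 4 least abundant transcripts lay close together. Htr7 had 1.64 ± 0.379 and 1.76 ± 0.696 CPM per kilobase, Htr1a 1.71 ± 0.433 and 1.13 ± 0.492, and Htr4 1.19 ± 0.201 and 1.22 ± 0.297. Neighbours in this stretch did not separate beyond their spread, with Htr7 above Htr1a in 7 of 12 libraries and Htr1a above Htr4 in 8. Htr3a, the channel subunit that varenicline can act on, was the lowest at 0.978 ± 0.204 with saline and 0.928 ± 0.142 with varenicline, and lay below Htr4 in 11 of 12 libraries. In the authors' FPKM values Htr3a averaged 1.05 ± 0.234 and 0.966 ± 0.167.

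**Figure D1:**
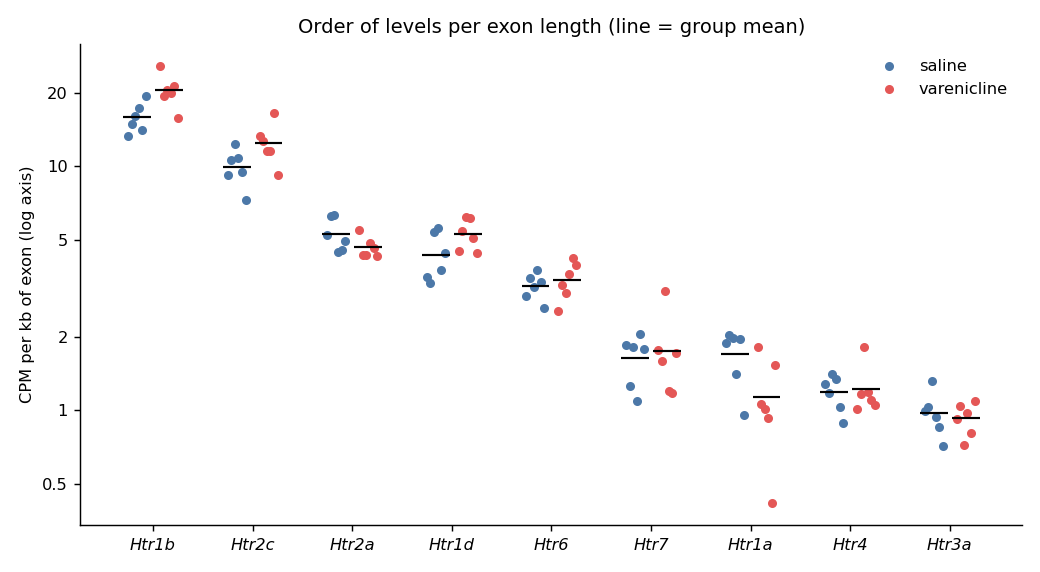
Levels of the 9 serotonin receptor transcripts in CPM per kilobase of exon (log axis), 1 point per library, saline in blue and varenicline in red, with a line at each group mean. Htr1b and Htr2c lie above the rest in every library, Htr2a and Htr1d share a level, and Htr3a has the lowest mean.

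As a share of the summed level of all 9 genes per length, Htr1b made up 36.0% ± 4.82 with saline and 39.7% ± 2.87 with varenicline. Htr2c made up 22.5% ± 2.83 and 24.2% ± 3.12, so these 2 transcripts accounted for most of the receptor message in both groups. Htr1a was a minor share in each library, with 2.23% to 4.76% in saline and 0.755% to 3.55% in varenicline libraries. The summed level was 44.2 ± 3.64 CPM per kilobase with saline and 51.4 ± 4.96 with varenicline, and the group ranges overlapped (40.2 to 49.9 and 43.0 to 57.2).

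Varenicline was then compared with saline to ask whether striatal serotonin receptor transcripts differ between drug-treated and vehicle-treated drinking mice. None of the 9 passed an adjusted p of 0.05 in edgeR's quasi-likelihood test, nor did any of the 15148 genes tested (0% called). At an unadjusted p under 0.05, Htr1b, Htr1d and Htr2c were on the higher side and Htr1a on the lower side. Across all genes tested that threshold took 7.26% on the higher side and 9.63% on the lower side. The median log2 fold change of the 9 was 0.09, against 0.01 over all genes tested. The groups did not separate completely for any of the 9, where 0.759% of all genes tested had groups that did not overlap in CPM.

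Htr1b, an inhibitory receptor of axon terminals, had the smallest p of the 9. Its lowest, median and highest values were 15.4, 18.03 and 22.6 CPM with saline and 18.3, 23.5 and 30.0 CPM with varenicline. All varenicline libraries except varenicline 6 lay above the saline mean, 4 of them above the highest saline library, and varenicline 6 was at 18.3 CPM. The means were 18.4 ± 2.63 and 23.8 ± 3.79 CPM (SD, n = 6), a log2 fold change of 0.36 (SE 0.111, edgeR adjusted p = 0.152). Without varenicline 6 it was 0.43 (SE 0.0987, edgeR adjusted p = 0.0114, where 10.7% of all genes were called). Leaving out any other library called 0 of the 9 genes, and at most 0.0263% of all genes (without varenicline 2). DESeq2 gave Htr1b an adjusted p of 0.0491 in all 12 libraries, and called 3.33% of the 12119 genes that had an adjusted p there. The gene (ENSMUSG00000049511, chromosome 9, 81631392 to 81632552 on mm10) shares 729 bases of its counted exon with the antisense gene D430036J16Rik. Since the use of strand in counting is not given, reads of the pair may not have been told apart. D430036J16Rik had 3117 counts over the 12 libraries, against 5357 for Htr1b. It had 155 in saline 1 and 189 in varenicline 1, libraries of 14040416 and 13340420 counts. In varenicline 5 and varenicline 6, of 17068423 and 17536842 counts, it had 265 and 168, and Htr1b 428 and 320. The part of the antisense gene in the Htr1b values was not tested. In bulk tissue, fewer cells of a type and less RNA per cell cannot be told apart, for this gene and for those below.

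Htr1d, another inhibitory receptor (ENSMUSG00000070687, chromosome 4, 136423524 to 136444401), was above the saline mean in 6 of 6 varenicline libraries. The lowest, median and highest values were 10.7, 13.1 and 17.9 CPM with saline and 14.2, 16.8 and 19.9 CPM with varenicline. Saline 3 and saline 4, at 17.3 and 17.9 CPM, lay within the varenicline range. The log2 difference was 0.29 (SE 0.136; adjusted p in edgeR, 0.295).

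Htr1a (ENSMUSG00000021721, chromosome 13, 105443693 to 105448133), the inhibitory receptor on cell bodies and dendrites, had the largest log2 fold change of the 9 and the widest spread. Its lowest, median and highest values were 4.26, 8.56 and 9.07 CPM with saline and 1.85, 4.62 and 8.12 CPM with varenicline. Varenicline 1 and varenicline 6, at 8.12 and 6.79 CPM, were the high libraries of their group, and saline 6, at 4.26 CPM, was the low one of the saline group. The means were 7.58 ± 1.92 and 5.02 ± 2.19 CPM, a log2 fold change of -0.61 (SE 0.266, edgeR adjusted p = 0.262). In limma-voom with sample weights, which called 13.9% of all genes, it was -0.99 (limma adjusted p = 0.0115).

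Of the Gq-coupled pair, Htr2c was higher and Htr2a lower on average. Htr2c (ENSMUSG00000041380, chromosome X, 146962513 to 147197277) had lowest, median and highest values of 34.5, 47.6 and 58.9 CPM with saline and 43.9, 57.8 and 78.5 CPM with varenicline. Varenicline 5 was the highest library and saline 6 the lowest, and 3 varenicline libraries exceeded every saline library. The log2 difference was 0.32 (SE 0.131; adjusted p in edgeR, 0.228). Without varenicline 6 it was 0.41 (SE 0.120, edgeR adjusted p = 0.0421, where 10.7% of all genes were called). Htr2a (ENSMUSG00000034997, chromosome 14, 74640840 to 74706859) had 13.2, 15.1 and 18.7 CPM with saline and 12.7, 13.3 and 16.3 CPM with varenicline, in the same order. Its 2 highest libraries were saline 2 and saline 3, and varenicline minus saline came to -0.19 in log2 (SE 0.103; adjusted p in edgeR, 0.369).

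Htr3a (ENSMUSG00000032269, chromosome 9, 48899213 to 48911099) was counted 26 to 64 times per library, 511 times in all. Its lowest, median and highest values were 1.496, 2.01 and 2.76 CPM with saline and 1.51, 1.98 and 2.28 CPM with varenicline. The varenicline libraries all lay inside the saline range, 3 above and 3 below the saline mean. The means were 2.04 ± 0.424 and 1.93 ± 0.296 CPM, and the log2 difference was -0.08 (SE 0.180; adjusted p in edgeR, 0.867). Its 95% interval ran from -0.46 to 0.31, so differences inside that span were not resolved at this depth. For the highest library, saline 3, the exact Poisson interval was 2.12 to 3.52 CPM, and for the lowest, saline 6, it was 1.03 to 2.10 CPM. Its direction turned when saline 3 was left out (0.04).

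Htr3a also marks interneurons of the caudal ganglionic eminence, and 8 markers of those cells were listed beside it. Of these, 4 were higher and 4 lower, and 1 of the 4 lower ones reached an unadjusted p of 0.05 (9.63% of all genes were lower there). The summed level overlapped, 175 to 228 CPM with saline and 186 to 249 CPM with varenicline. That sum came mostly from Reln, at 112 to 177 CPM with saline and 117 to 198 CPM with varenicline, and says little about the other markers. Vip, a peptide of such cells, had a log2 fold change of -1.08 (7.07 and 3.35 CPM), Calb2, a calcium-binding protein, 1.04 (5.65 and 11.4 CPM, with varenicline 3 at 33.3, varenicline 1 at 15.6 and the rest of that group at 3.48 to 6.04), and the transcription factor Nr2f2 -0.33 (12.7 and 10.1 CPM). None passed the adjusted threshold, and their part in the Htr3a values was not tested. Htr3b, the partner subunit of the channel, had 7 counts over the 12 libraries and was too low to test.

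The stimulatory receptors had group means close to each other. Htr4 (ENSMUSG00000026322) had a log2 fold change of 0.05 (SE 0.159), Htr6 (ENSMUSG00000028747) 0.09 (SE 0.139) and Htr7 (ENSMUSG00000024798) 0.11 (SE 0.227), with edgeR adjusted p of 0.903, 0.787 and 0.841. Htr4 ran from 4.12 to 6.59 CPM with saline and from 4.72 to 8.46 CPM with varenicline. Htr6 ran from 3.58 to 5.11 CPM and from 3.47 to 5.74 CPM. Htr7 ran from 3.37 to 6.35 CPM with saline and from 3.65 to 9.50 CPM with varenicline. Varenicline 3 was the highest of all libraries for both Htr4 and Htr7. Without it their log2 fold changes were -0.10 and -0.13.

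**Figure D2:**
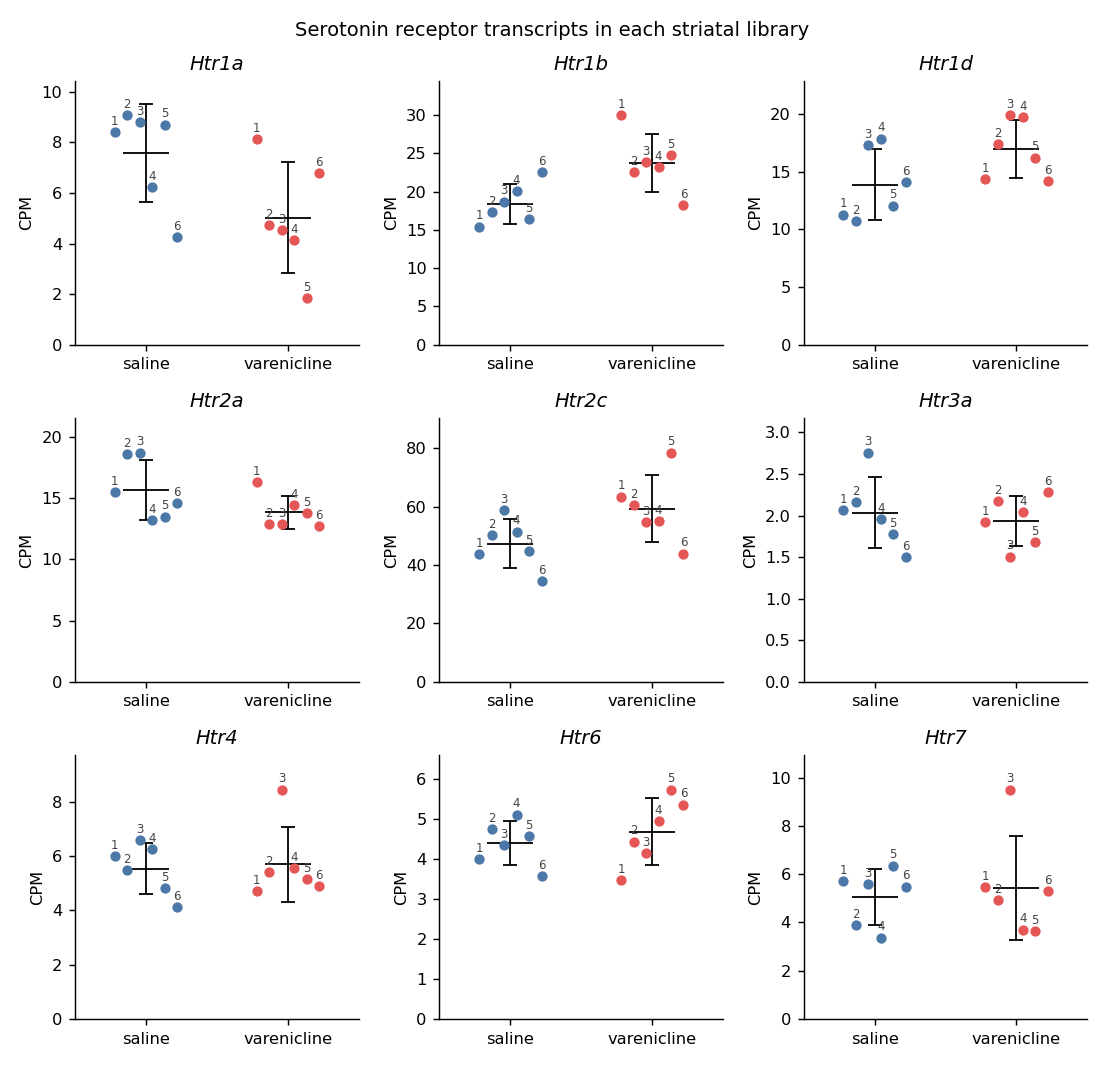
CPM of each serotonin receptor transcript, 1 numbered point per library, saline in blue and varenicline in red, with black bars for the group mean and SD (n = 6); every axis starts at 0. The groups overlap in all 9 panels, and varenicline 6 is the lowest library of its group for Htr1b, Htr1d, Htr2a and Htr2c.

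Several of the 9 transcripts moved from library to library with the markers of cortex and striatum. Relations were computed for the 9 genes with 4 marker scores over the 12 libraries, 36 in all, and 5 passed an adjusted p of 0.05 by Pearson's r, with 3 by Spearman's rho and 2 by both. Without the 2 libraries farthest from the median score, 2 still passed by Pearson's r: Htr1b with the cortical score and Htr1a with the projection neuron score. Htr1b fell as the cortical score rose (r = -0.76, permutation p = 0.00416, adjusted p = 0.0459; rho = -0.87, p = 0.00048, adjusted p = 0.0173). The relation held within the saline group alone (r = -0.92, exact permutation p = 0.00972, n = 6). In the varenicline group alone r was -0.47 (exact permutation p = 0.300, n = 6). Without varenicline 3 and varenicline 5, the libraries farthest from the median score, r was -0.83.

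Htr1a went the other way. It rose with the cortical score (r = 0.78, permutation p = 0.00250, adjusted p = 0.0450; rho = 0.73, p = 0.00866, adjusted p = 0.0530), and r was 0.72 without the same 2 libraries (permutation adjusted p = 0.163). Within the saline group r was 0.83, and within the varenicline group 0.66 (exact permutation p = 0.0611 and 0.163, n = 6 each). Against the projection neuron score Htr1a fell (r = -0.80, permutation p = 0.00111, adjusted p = 0.0400; rho = -0.80, p = 0.00287, adjusted p = 0.0344). Without saline 1 and varenicline 6, r was -0.87. Within groups r was -0.76 and -0.74 (exact permutation p = 0.0917 and 0.108, n = 6 each).

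Htr1b and Htr1d rose with the projection neuron score. For Htr1b r was 0.74 (permutation p = 0.00637, adjusted p = 0.0459; rho = 0.75, p = 0.00741, adjusted p = 0.0530). Within the saline group it was 0.91, and within the other 0.47 (exact permutation p = 0.0153 and 0.313, n = 6 each), and without saline 1 and varenicline 6 it was 0.63 (permutation adjusted p = 0.264). For Htr1d r was 0.75 (permutation p = 0.00626, adjusted p = 0.0459; rho = 0.73, p = 0.00883, adjusted p = 0.0530). Within groups it was 0.74 and 0.65 (exact permutation p = 0.107 and 0.167, n = 6 each), and without the same 2 libraries 0.72 (permutation adjusted p = 0.163). Against the cortical score Htr1d passed by Spearman's rho alone (rho = -0.80, permutation p = 0.0028, adjusted p = 0.0344; r = -0.71, p = 0.0106, adjusted p = 0.0636). Without varenicline 3 and varenicline 5 that r was -0.73 (permutation adjusted p = 0.163), and within groups it was -0.69 for both (exact permutation p = 0.144 and 0.114, n = 6 each). The 2 scores share depth and dissection in each library and are not independent of each other. The permutations over 12 libraries moved values across groups, and the cortical score averaged 4.92 with saline and 3.59 with varenicline. Their p-values therefore do not separate a relation between libraries from a group difference that score and receptor share.

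Htr2c was set against choroid plexus because that epithelium carries it at high levels. Over the 12 libraries r was 0.49 (permutation p = 0.106, adjusted p = 0.318; rho = 0.54, p = 0.0759, adjusted p = 0.304), and 0.14 without varenicline 1 and varenicline 5. Within the varenicline group r was 0.89 (exact permutation p = 0.00139, n = 6), and within the saline group 0.05 (exact permutation p = 0.931, n = 6). Saline 2 and saline 5, with choroid scores of 4.22 and 3.87, had 50.3 and 44.9 CPM of Htr2c, near the saline median of 47.6. Varenicline 1 and varenicline 5, with scores of 4.27 and 4.43, had 63.4 and 78.5 CPM. With the choroid plexus score as a covariate the log2 fold change of Htr2c was 0.27 (SE 0.124), against 0.32 without it. In that fit the same 4 of the 9 genes as before had an unadjusted p under 0.05, where all genes gave 6.62% higher and 9.04% lower. Among the varenicline libraries Htr3a also rose with the cortical score (r = 0.89, exact permutation p = 0.0181). Htr7 rose there with the score of septal and pallidal markers (r = 0.80, exact permutation p = 0.00833). Over the 12 libraries neither of these pairs passed (permutation adjusted p = 0.230 and 0.148). Within-group p-values were not adjusted.

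**Figure D3:**
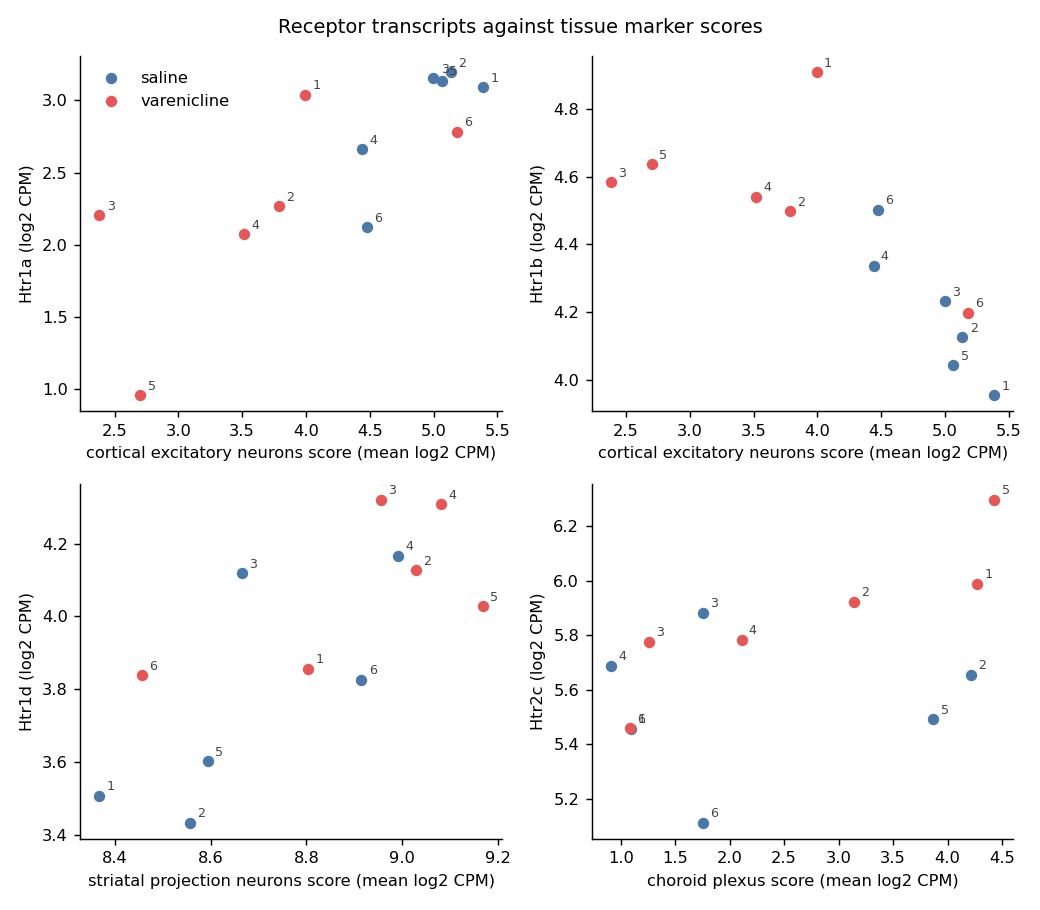
Log2 CPM of Htr1a and Htr1b against the cortical excitatory score, of Htr1d against the projection neuron score and of Htr2c against the choroid plexus score (each score is the mean log2 CPM of 12 markers), 1 numbered point per library. Varenicline 6 lies among the saline libraries in both cortical panels, and Htr2c follows the choroid score among the varenicline libraries.

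Cortical markers had lower values with varenicline. Of 12 tested, 12 were lower with varenicline and 11 at an unadjusted p under 0.05, with log2 fold changes of -1.30 for Nrn1, -1.29 for Bhlhe22 and -1.21 for Tbr1. With their score as a covariate in edgeR, 0 of the 9 receptor genes passed the adjusted threshold (0.0198% of all genes did). The unadjusted threshold also took 0 of the 9, where it took 3.05% of all genes as higher and 2.01% as lower. In the 12 libraries the log2 fold changes with the score were 0.01 for Htr1a (SE 0.288), 0.16 for Htr1b (SE 0.136), 0.02 for Htr1d (SE 0.162) and 0.13 for Htr2c (SE 0.174). For each of these 4 the standard error was wider than in the fit without the score. The same fit without varenicline 6, added after seeing the data, gave 0.36 for Htr1a (SE 0.410), 0.32 for Htr1b (SE 0.185), -0.053 for Htr1d (SE 0.240) and 0.40 for Htr2c (SE 0.239). In that fit 0 of the 9 had an unadjusted p under 0.05, against 5.99% of all genes higher and 5.22% lower. Without varenicline 6, every cortical score of the varenicline group (2.38 to 3.99) lay below every saline one (4.44 to 5.39). That fit therefore cannot tell the score and the treatment apart. In the 12 libraries only varenicline 6 joined the ranges, so the adjusted values there rest largely on that library. Striatal projection neuron markers were higher in 12 of 12, 6 at an unadjusted p under 0.05 (7.26% of all genes were higher there). Their log2 fold changes included 0.24 for Pdyn and 0.38 for Tac1. With that score as a covariate the values were -0.26 for Htr1a, 0.23 for Htr1b, 0.12 for Htr1d and 0.22 for Htr2c, and only Htr1b had an unadjusted p under 0.05 (all genes, 4.58% higher and 6.14% lower). Septal and pallidal markers were higher in 10 of 10, 8 at an unadjusted p under 0.05 (7.26% of all genes were higher there). Their summed levels were 40.2 to 64.8 CPM with saline and 50.5 to 136 CPM with varenicline, with none at 0. Zic4 had 1.32, Zic5 1.48 and Dlk1 1.19. Varenicline 1 and varenicline 3 stood apart, with 15.4 and 9.04 CPM of Zic4 against 2.28 to 4.21 in the rest of the group, and 13.0 and 19.5 CPM of Dlk1 against 2.72 to 6.85. With their score as a covariate Htr1a was at -0.89 and Htr7 at -0.41, the latter with its sign turned. There Htr2c was higher and Htr1a lower at an unadjusted p under 0.05, where all genes gave 3.91% higher and 4.92% lower.

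**Figure D4:**
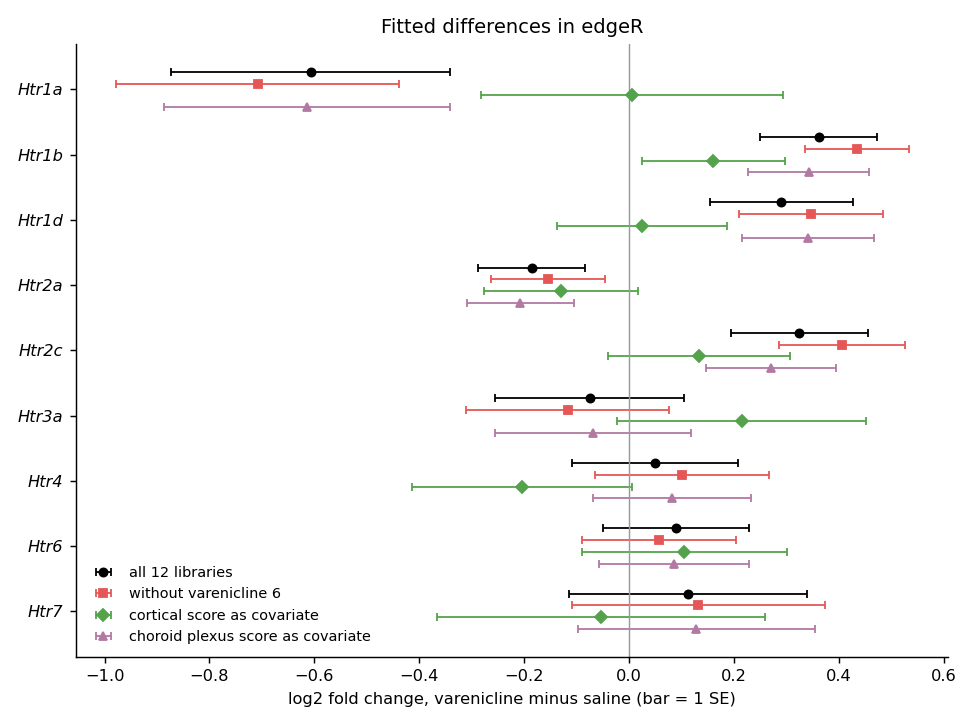
Log2 fold change of each serotonin receptor transcript, varenicline minus saline, with bars of 1 SE from edgeR, in the fit to all 12 libraries, the fit that omits varenicline 6, and the fits with the cortical or the choroid plexus score added. The values of Htr1a, Htr1b, Htr1d and Htr2c lie nearer 0 with the cortical score than without it, and Htr1a, Htr3a, Htr4 and Htr7 change sign.

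For each receptor, the gene with the most similar course over the 12 libraries was noted as a description. By Pearson's r of log2 CPM these were Pdxk for Htr1b (0.99), Ppm1e for Htr1a (0.97), Tmem181a for Htr4 (0.94), Nop58 for Htr2c (0.93), Rhbdl3 for Htr1d (0.93), Minpp1 for Htr3a (0.92), Cyba for Htr6 (0.90), Ret for Htr7 (0.88) and Hmgb1 for Htr2a (0.85). The next 2 in each case were Plekhg4 and Fam183b for Htr1b, Fam155a and Slc8a1 for Htr1a, and Mpp7 and Zfp280d for Htr2c. For Htr1d they were Itih5 and Dcc, and for Htr3a Pdcd4 and Atp5s. Each is the best of 15148 genes, less unnamed ones, so a high r is no finding. Among the receptors themselves r was 0.58 between Htr1b and Htr1d, 0.52 between Htr1b and Htr2c and -0.54 between Htr1a and Htr1b.

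The remaining serotonin receptor genes were sparse or had lower values with varenicline. Of 5 listed, 3 could be tested, and 2 were lower at an unadjusted p under 0.05 (9.63% of all genes). Htr1f, an inhibitory receptor, averaged 2.99 ± 0.453 and 2.14 ± 0.205 CPM, with 6 of 6 varenicline libraries below the saline mean. In log2 the difference was -0.48 (SE 0.148; adjusted p in edgeR, 0.152). Htr5a had 16.7 ± 1.70 and 12.1 ± 3.48 CPM and a log2 fold change of -0.46 (SE 0.147, edgeR adjusted p = 0.159). In varenicline 6 it was 18.3 CPM, while the other varenicline libraries had 8.17 to 13.4 CPM. Without varenicline 6 both passed in edgeR, Htr1f with -0.52 (adjusted p = 0.0475) and Htr5a with -0.60 (adjusted p = 0.00379), in a fit that called 10.7% of all genes. Adjusted for the cortical score they were at -0.30 and -0.09. Htr5b, at -0.09, had 11 to 54 counts per library, and Htr2b had 28 counts in all.

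Genes that make, carry and break down serotonin more often had higher than lower values with varenicline. Of 15 listed, 12 could be tested, 9 higher and 3 lower, where 3 of the higher ones and 0 of the lower ones had an unadjusted p under 0.05 (all genes, 7.26% higher and 9.63% lower), with a median log2 fold change of 0.09. Slc18a2, which loads monoamines into vesicles, had 0.555 ± 0.243 CPM in saline and 2.01 ± 2.00 CPM in varenicline libraries, a log2 fold change of 1.81, with varenicline 1 and varenicline 3 at 5.68 and 2.93 CPM. Ddc, the decarboxylase that completes serotonin and dopamine synthesis, had 0.34 (9.01 and 11.5 CPM), and Maob, a monoamine oxidase, 0.13 (34.3 and 37.7 CPM). Pts, an enzyme of the hydroxylase cofactor, had 0.19. Adjusted p in edgeR was 0.147, 0.204, 0.213 and 0.317 in turn. Without varenicline 6, where 10.7% of all genes were called, Slc18a2 passed with 2.01 and Maob with 0.17 (edgeR adjusted p 0.0212 and 0.0462). Tph2, the neuronal tryptophan hydroxylase, was at 1.60 ± 0.489 and 1.57 ± 0.374 CPM. The transporter Slc6a4 had 4 counts and the raphe factor Fev 3 counts over all 12 libraries, and 4 of the 6 markers of serotonergic cell bodies were too low to test.

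Receptor partners and signalling genes mostly had lower values with varenicline. All 12 partner and editing genes were lower, 4 at an unadjusted p under 0.05 (9.63% of all genes), with a median log2 fold change of -0.09. Adarb1, which edits the Htr2c transcript, had -0.27 (221 and 183 CPM), Mpdz, a scaffold that binds Htr2c, -0.19, Adar -0.11 and Arrb2, a beta-arrestin, -0.19 (edgeR adjusted p 0.186 to 0.281). Without varenicline 6 Adarb1 passed with -0.32 (edgeR adjusted p = 0.0303, where 10.7% of all genes were called). Ric3, a chaperone of nicotinic receptors and of the serotonin-gated channel, had -0.02 (84.9 and 83.9 CPM). S100a10, a partner of Htr1b and Htr4, had -0.18. Among 17 tested G protein and effector genes, 13 were lower and 4 higher. At an unadjusted p under 0.05 there were 7 lower ones and 0 higher ones, where all genes gave 9.63% lower and 7.26% higher. The higher ones were Adcy5 (0.18), Gnal (0.17), Plcb1 (0.08) and Gnai3 (0.03). Without varenicline 6 they were at 0.26, 0.25, 0.15 and 0.07 (edgeR adjusted p 0.0919 to 0.465). Gnaz, an inhibitory G protein subunit, had -0.34, and the channel genes Kcnj9 and Kcnj3, which inhibitory receptors open, -0.68 and -0.64. Adcy1, an adenylyl cyclase, had -0.51. None of these 4 passed in edgeR (adjusted p 0.135 to 0.162). Without varenicline 6, where 10.7% of all genes were called, all 4 did: Gnaz with -0.41, Kcnj9 with -0.95, Kcnj3 with -0.82 and Adcy1 with -0.67 (edgeR adjusted p 0.00122, 0.000554, 0.00571 and 0.00212). Once the cortical score entered the fit, Kcnj9 was at -0.07 (SE 0.115) and Kcnj3 at 0.00044 (SE 0.104). Adcy1 was then at 0.01 (SE 0.0838) and Gnaz at -0.17 (SE 0.0956). The 4 genes that were higher without the score turned sign with it. Adcy5 was at -0.15 (SE 0.109), Gnal at -0.14 (SE 0.103), Plcb1 at -0.08 (SE 0.0899) and Gnai3 at -0.02 (SE 0.0861). The score itself differed between the groups, so the covariate cannot separate cortical tissue from treatment. The part of cortical tissue in these values was not tested.

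**Figure D5:**
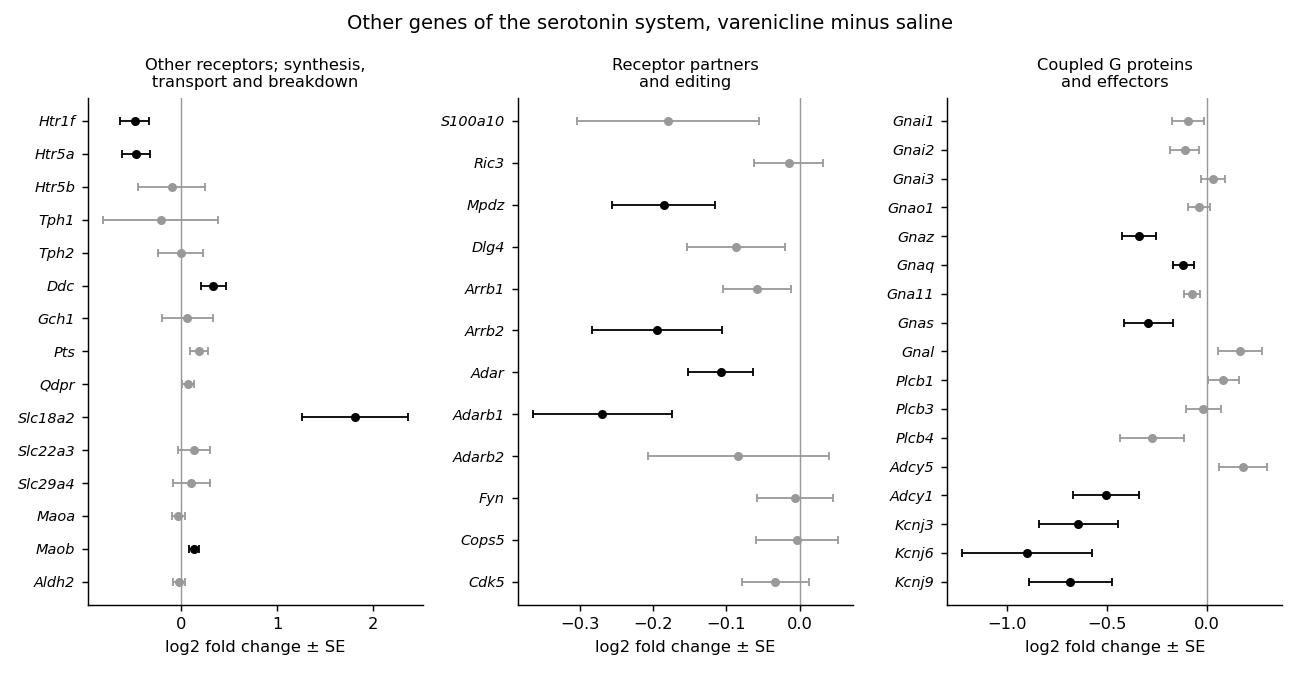
Log2 fold change with SE, varenicline minus saline, for the other tested genes of the serotonin system, in 3 panels, black where the unadjusted edgeR p is under 0.05 and grey otherwise; the axes differ in range. Partner and effector genes lie mostly left of 0, and Slc18a2 is the farthest to the right.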

How the data were processed

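The authors deposited raw counts per gene, whole numbers in 1 column per library, together with FPKM values and a Cuffnorm table of scaled counts per gene (a signal). The tools named in the submitters' processing notes are TopHat2, featureCounts, Trimmomatic, FastQC, Cuffnorm, Cuffdiff and DESeq2, with mm10 as the build. Versions, annotation and strand are not stated there.

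Counts were filtered by edgeR 4.0.16 (filterByExpr by group), scaled by TMM and tested with its quasi-likelihood F test under R 4.3.3, with Benjamini-Hochberg adjustment over all 15148 genes and a threshold of 0.05. The standard error is the log2 fold change divided by the square root of F. CPM values use TMM-scaled library sizes, and 3 counts corresponded to 0.109 to 0.221 CPM; this floor and the Poisson intervals cover only counting error. Scores are mean log2 CPM with a prior count of 2. Correlations used 100000 permutations, or all 720 within a group of 6. Overlaps were read from GENCODE vM21, and promoters from RefSeq. Alternatives were other scaling, filters, DESeq2 1.42.0, limma 3.58.1, marker scores as covariates and each library left out. Fits were tested on simulated data. Named besides the receptors are up to 4 genes with the smallest p per serotonin list and up to 3 per marker list described. Also named are the closest genes by correlation and the effector genes that were higher with varenicline. S100a10, Ric3 and Tph2 are named for their known roles, and Reln for its level. These and the higher effector genes were chosen after their values were seen. The members and lists were chosen with earlier results of these data known. Replicate numbers follow accession order and pair nothing.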

Additional observations from a re-analysis of the deposited data

Results flagged for a closer look

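Of 32 sets of 6 values examined, covering the 9 receptors, Htr1f, Htr5a, Htr5b and 4 marker scores in each group, 2 held a library whose gap to its nearest neighbour exceeded Dixon's 95% limit, and chance gives 1.6 at 1 in 20. Htr4 in varenicline 3 was at 3.10 log2 CPM, and the rest of its group at 2.27 to 2.50. Htr5b in varenicline 1 was at 1.16 log2 CPM, and the rest of its group at -0.17 to 0.21.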

How the results depend on the processing

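The number of the 9 receptor genes past the threshold was 0 in edgeR. It was 1 in DESeq2 (Htr1b), which called 3.33% of the 12119 genes that it gave an adjusted p. Htr3a was not among those genes (unadjusted p in DESeq2, 0.721). In limma-voom with sample weights the number was 3 (Htr1a, Htr1b and Htr1d), with 13.9% of all genes called. DESeq2 without varenicline 6, an alternative added after seeing the data that called 14.3% of 15090 genes, gave 2 (Htr1b and Htr2c). Leaving out each library in edgeR gave 0 to 2. The 2, Htr1b and Htr2c, came only without varenicline 6, where 10.7% of all genes were called. In each other alternative run the number was 0. Of the 36 relations with marker scores, 5 passed, and 2 without the 2 libraries farthest from the median score.

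Htr1b and Htr2c kept their sign in all 28 alternatives. The cortical score as a covariate turned Htr1a to 0.0055, Htr3a to 0.21, Htr4 to -0.20 and Htr7 to -0.054. With that score and without varenicline 6, added after seeing the data, Htr1a was at 0.36, Htr1d at -0.053, Htr2a at 0.11, Htr3a at 0.37, Htr4 at -0.30, Htr6 at -0.15 and Htr7 at -0.27. The septal and pallidal score turned Htr3a to 0.078, Htr4 to -0.072 and Htr7 to -0.41, and the projection neuron score Htr3a to 0.025. In limma-voom Htr4 was at -0.034 and Htr7 at -0.042. Leaving out libraries, Htr3a ran from -0.15 to 0.041 (the latter without saline 3), Htr4 from -0.10 to 0.12 (-0.022 without saline 6, -0.096 without varenicline 3) and Htr7 from -0.13 (without varenicline 3) to 0.21. The cause of each was not tested. Depth limits Htr3a most, with as few as 26 counts in a library. No paired analysis was possible because the labels give every library the same replicate number.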
